A study of Mus musculus with 12 samples.

Results

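The 93 genes described here are the autosomal protein-coding genes of the mouse whose bodies, from the first to the last annotated base, span 800 kb or more. They were taken from the RefSeq annotation of GRCm38 by length alone, among the 20556 protein-coding genes on chromosomes 1 to 19 that start after the first 3 Mb. They were then set against a list of H4K20me3 domains from mouse embryonic stem cells. The cells were ES cells of the line dTKO with the genotype Suv39h1fl/fl, Suv39h2-/-, Setdb1fl/fl, so every sample lacked intact Suv39h2, including those at 0 h. They were exposed to dTAG13 (0.5 μM) and auxin (100 μg/ml) for 0, 12, 24 or 48 h, with 3 replicates per time and 12 ChIP-seq libraries in all. All libraries came from this line, and the labels do not say which protein each agent acts on. The series asks how H4K20me3 decays once H3K9 methyltransferases are removed. The values analysed here are 1 list of 28210 domains with chromosome, start and end. It holds no signal, score or sample name, so no time, replicate or depth enters any value below, and no difference given here has a replicate error or a test.

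H4K20me3 is a repressive histone mark, trimethylation of lysine 20 of histone H4. It is placed largely by the SUV4-20H enzymes, which are brought to chromatin by HP1 proteins bound to H3K9me3, and it is known from pericentromeric satellite, telomeres and silenced retrotransposons. Genes of megabase length consist almost wholly of introns. Many encode adhesion molecules, receptors and scaffolds of the synapse, and several lie at common fragile sites, where chromosomes break when replication is slowed.

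All 93 long genes met at least 1 H4K20me3 domain, where a domain counted with 1 shared base. Among all autosomal protein-coding genes the share was 13.9%, but the chance of meeting a domain grows with length, so densities are used from here on. The bodies span 105.4 Mb once shared bases are counted once, which is 4.38% of the autosomal sequence, and they held 793 separate domains, 3.08% of the autosomal ones. Density was 7.53 domains per Mb, against 10.7 over all autosomal sequence after the first 3 Mb, and 2.45% of the bases were covered against 4.24%. The long genes thus carried fewer and less extensive domains than autosomal sequence as a whole. That is not particular to them: summed over all autosomal protein-coding genes, bodies had 5.40 domains per Mb and 1.84% covered.

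The annotated starts that could be matched to the long genes all lay outside the domains, though 1 promoter window shared bases with a domain. RefSeq promoter windows of GRCm38.p6, 250 bases before to 50 after a start, were matched for 72 of the 93 genes, with 120 windows in all. The window of each gene nearest its 5′ end, called its first window here, was not always at that end: 50 of the 72 lay within 1 kb of it, and 15 lay over 200 kb inside the body. None of the 72 first windows shared a base with a domain, and 1 of the 48 windows farther inside did. Over all 20084 windows of autosomal protein-coding genes the share was 1.25%, so the count of 1 among 120 is near the background. The distance from the start in these first windows to the nearest domain ranged from 3.88 to 536.4 kb, with a median of 37.6 kb, and the median was 35.9 kb in the 50 at the 5′ end. Over all 120 windows of the long genes the median was 41.8 kb, and over all 20084 windows it was 57.8 kb. Printed here are the internal window nearest to a domain, the first windows nearest and farthest, and that of the densest gene matched. All read 5′ to 3′, and each CG dinucleotide is in capitals.
Dlg2, internal start, chr7:92234720-92235019, plus strand: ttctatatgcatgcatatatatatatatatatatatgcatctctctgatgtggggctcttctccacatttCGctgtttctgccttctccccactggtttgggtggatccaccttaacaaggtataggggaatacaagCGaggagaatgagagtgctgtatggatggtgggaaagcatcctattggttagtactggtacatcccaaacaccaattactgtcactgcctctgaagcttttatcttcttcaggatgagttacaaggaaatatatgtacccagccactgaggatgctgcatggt
Spag16, first start, chr1:69826720-69827019, plus strand: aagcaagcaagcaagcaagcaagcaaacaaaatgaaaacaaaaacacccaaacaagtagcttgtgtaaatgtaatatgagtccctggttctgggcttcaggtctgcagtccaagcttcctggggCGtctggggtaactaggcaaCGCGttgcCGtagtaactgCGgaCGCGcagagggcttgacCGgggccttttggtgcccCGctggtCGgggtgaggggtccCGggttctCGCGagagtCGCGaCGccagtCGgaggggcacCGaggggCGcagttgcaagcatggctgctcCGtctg
Thsd7b, first start, chr1:129273054-129273353, plus strand: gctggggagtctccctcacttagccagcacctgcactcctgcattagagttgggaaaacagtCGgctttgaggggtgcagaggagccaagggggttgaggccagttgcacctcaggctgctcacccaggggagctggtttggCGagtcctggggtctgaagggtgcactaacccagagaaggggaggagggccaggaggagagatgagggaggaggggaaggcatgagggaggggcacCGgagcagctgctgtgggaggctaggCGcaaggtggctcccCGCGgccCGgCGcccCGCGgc
Camta1, first start, chr4:151861719-151862018, minus strand: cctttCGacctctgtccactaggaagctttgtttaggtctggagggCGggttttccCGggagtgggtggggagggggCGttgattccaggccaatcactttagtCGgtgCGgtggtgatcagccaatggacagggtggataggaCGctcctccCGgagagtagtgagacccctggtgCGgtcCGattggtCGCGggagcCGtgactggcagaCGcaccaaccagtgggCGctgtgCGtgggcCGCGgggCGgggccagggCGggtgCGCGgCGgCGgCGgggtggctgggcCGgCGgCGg

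The Dlg2 window is the only one of the 120 that met a domain. Dlg2 encodes PSD-93, a scaffold protein of the postsynaptic density, and this start lies 1759 kb inside its body. A domain of 11.1 kb, from 92223751 to 92234850 on chromosome 7, covered 131 of the 300 bases and ended 120 bases before the start. The window holds 2 CG dinucleotides. Spag16, which encodes a protein of the sperm axoneme, had the first start nearest to a domain, at 3.88 kb, and its window holds 20. Thsd7b, a thrombospondin-repeat membrane protein gene, was the densest gene with a matched window, and its first start lay 61.9 kb from a domain, with 10 CG dinucleotides. Camta1, a calmodulin-binding transcription activator gene, had the first start farthest from any domain, at 536.4 kb, with 28. The motif CG was searched as written, which reads the same on both strands. The median over the 72 first windows was 13.5 CG dinucleotides, against 14 over all 20084 windows, and 68.1% against 57.9% held at least 10. The 20084 include internal windows, which the 72 leave out. Over all 120 windows of the long genes the median was 11.5, and 56.7% held at least 10, near the share of the 20084. At least 1 CG was found in 97.2% of the 72 and in 95.6% of the 20084.

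Density differed widely among the long genes. The lowest value was 0.813 domains per Mb, the quartiles were 5.14, 6.86 and 9.43, and the highest was 30.8. The covered share ran from 0.0975% to 11.1% with a median of 2.28%. Only 18 genes exceeded the autosomal density and 11 the autosomal covered share. The number of domains per gene had a median of 7. It was 10 or more in 32 genes and 1 in 7 genes.

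**Figure D1:**
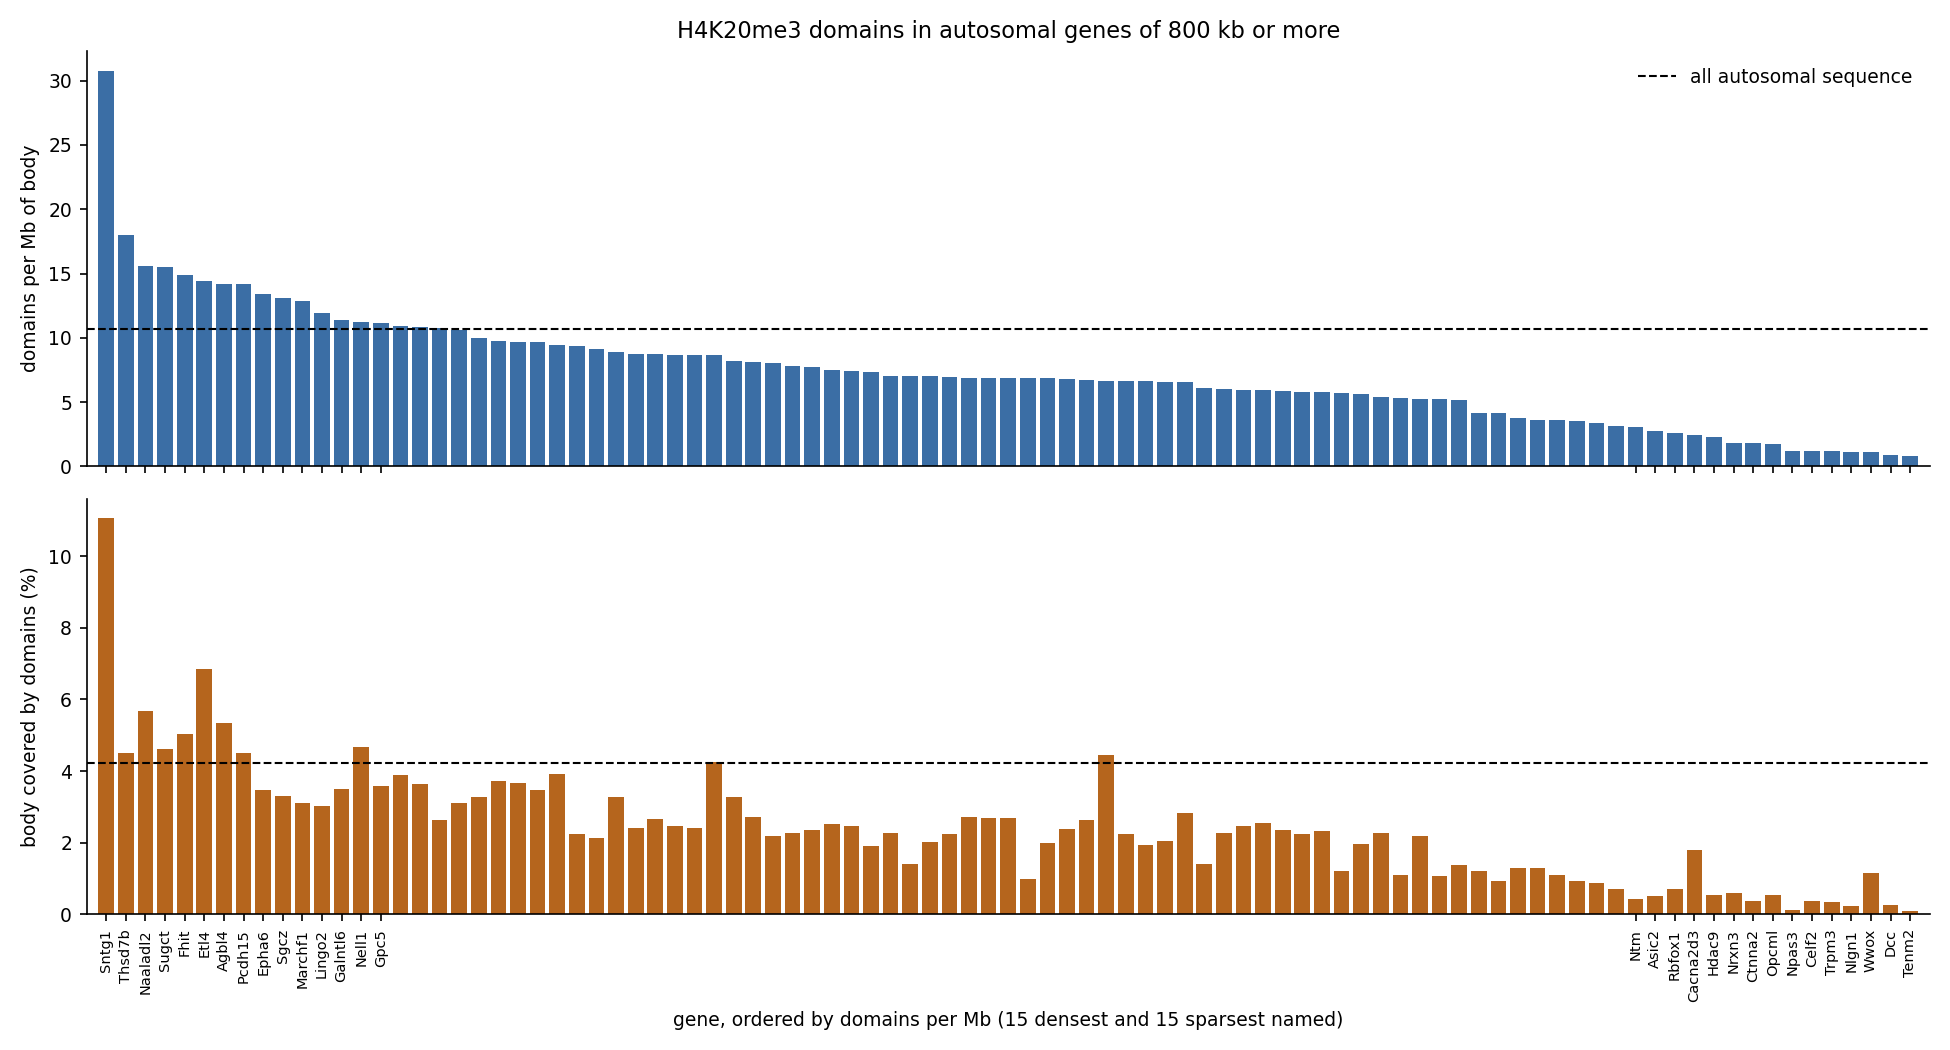
Domains per Mb of gene body (upper panel) and percent of the body covered by domains (lower panel) for each of the 93 genes, ordered by density, with the 15 densest and the 15 sparsest named; dashed lines give the values over all autosomal sequence, 10.7 per Mb and 4.24%. Sntg1 stands apart at 30.8 per Mb and 11.1%, and most of the other genes lie below both lines.

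Sntg1, the gene of γ1-syntrophin, an adaptor of the dystrophin complex, was first by both measures. It lies on chromosome 1 from 8359739 to 9301657 and held 29 domains that covered 104.1 kb. The next gene, Thsd7b, had 17 domains and 17.97 per Mb, so the step from first to second place was larger than any other in the order. The domains of Sntg1 were spread along the body, with no free stretch longer than 138.6 kb. They were of common size, with a median of 3.15 kb and 2 of over 10 kb. Its surroundings were dense too. The 500 kb on each side held 25 and 9 domains, the highest density around any of the 93 genes, 34 per Mb.

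After Sntg1 and Thsd7b, the densest genes were a mixed set of enzymes, adhesion molecules and scaffolds. Naaladl2, a peptidase-like membrane protein gene, held 21 domains (15.6 per Mb, 5.67% covered). Sugct, which encodes a mitochondrial CoA-transferase, held 13 (15.5 per Mb, 4.60%), and Fhit, a dinucleoside triphosphate hydrolase gene, 24 (14.9 per Mb, 5.03%). Etl4, or sickle tail, known for its part in the development of intervertebral discs, had 13 domains but the second-largest covered share, 6.85% or 61.7 kb, since its domains were wider, with a median of 3.90 kb. Agbl4, a tubulin deglutamylase gene, held 18 (14.2 per Mb, 5.35%). Pcdh15, a protocadherin gene of hair-cell tip links, held 22 (14.2 per Mb, 4.51%). Epha6, an ephrin receptor gene, and Sgcz, the gene of ζ-sarcoglycan, completed the first 10 with 13 and 15 domains. Nell1, a secreted growth-factor-like protein gene, and Gpc6, a glypican gene, entered the first 10 by covered share, at 4.66% and 4.44%. Gpc6 did so with only 7 domains. They had a median width of 6.30 kb, and among them was the widest domain in any long gene, 15 kb from 117851251 to 117866250 on chromosome 14.

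At the other end, 7 genes of 824.1 to 1230 kb had a single domain each. Tenm2, a teneurin adhesion gene on chromosome 11 from 36006656 to 37237053, had the lowest density, 0.813 per Mb. Its domain was 1.20 kb wide, and 893.3 kb from the 5′ end to that domain were free. Dcc, the netrin receptor gene, had 1 domain of 3 kb, and Wwox, an oxidoreductase and tumour suppressor gene, had 1 of 10.5 kb, from 115279351 to 115289850 on chromosome 8. Nlgn1, the gene of the postsynaptic adhesion molecule neuroligin 1, had 1 domain of 2.10 kb. Trpm3, a cation channel gene, Celf2, a splicing regulator gene, and Npas3, a neural transcription factor gene, had 1 domain each of 2.85, 3.30 and 0.900 kb. Wwox and Nlgn1 were close in density (1.095 and 1.098 per Mb) but not in covered share (1.15% and 0.231%), because of the width of that 1 domain.

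The 5 longest genes were neither the densest nor the sparsest. Ptprd, a receptor phosphatase gene of 2271 kb, held 15 domains (6.61 per Mb). Cntnap2, the gene of the axonal adhesion protein Caspr2, spans 2241 kb and held 21 (9.37 per Mb). Lsamp, a limbic adhesion gene, held 15 (6.83 per Mb) but none in the first 629.9 kb from its 5′ end. Lrp1b, a lipoprotein receptor-related gene, held 18 (8.75 per Mb). Macrod2, an ADP-ribosyl hydrolase gene, held 12 (6.01 per Mb). Across the 93 genes, density and length were almost unrelated (Pearson's r = 0.0639, Spearman's rho = 0.128, given as a description across genes).

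**Figure D2:**
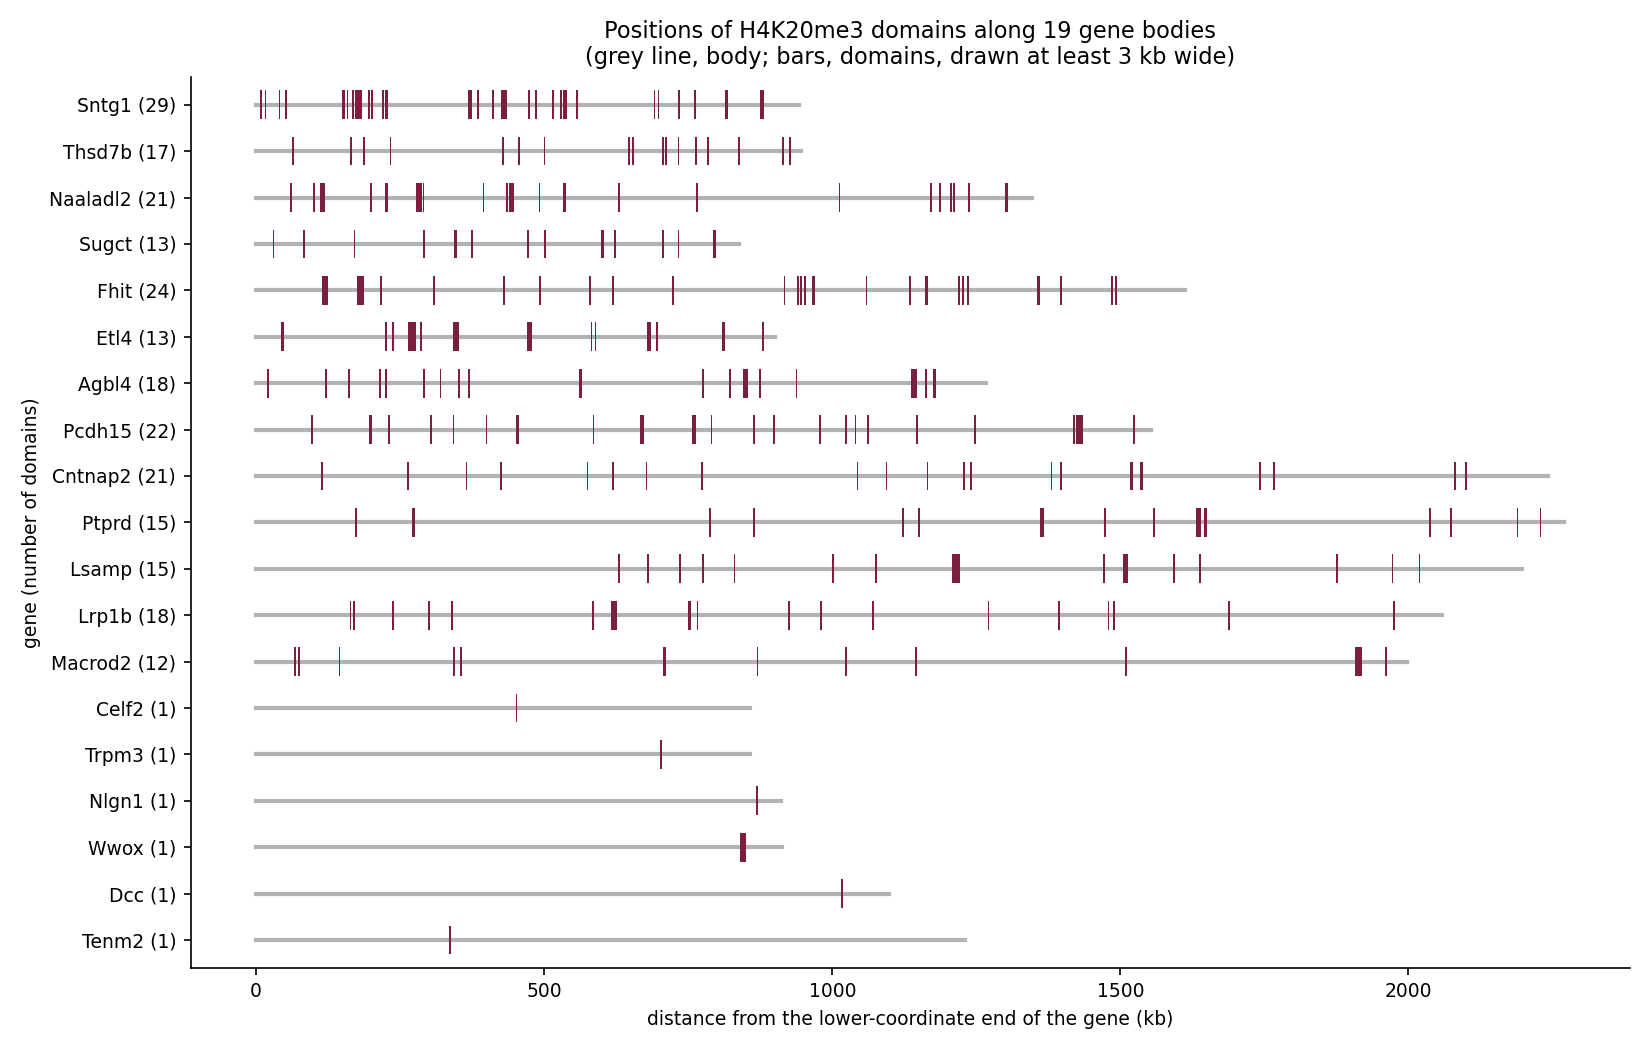
Domains (dark bars, drawn at least 3 kb wide) along the bodies (grey lines) of the 8 densest genes, the 5 longest genes and 6 of the 7 genes with a single domain; the x axis is the distance in kb from the end with the lower coordinate, and the number of domains is in brackets. Domains of the dense genes are spread along the whole body, while Lsamp shows a free stretch of 629.9 kb at its lower end.

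The length threshold did not fall at a step in the values. Just inside it, Camta1 had 3 domains (3.74 per Mb), Adgrl3, a latrophilin receptor gene, had 7 (8.66 per Mb), and Cacna2d3, a calcium channel subunit gene, had 2 (2.45 per Mb). Just outside, Ptprn2 had 4 (5.05 per Mb), Inpp4b 9 (11.4 per Mb) and Lrrtm4 5 (6.32 per Mb).

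Grouped by what their proteins do, the long genes of transcription and RNA regulation had low values. All 8 of them lay below the median of the 93 genes, with a median of 3.118 per Mb and 0.883% covered. Camta1 (1.29% covered), Rbms3 (1.21%), Auts2 (1.099%) and Sox5 (1.07%) had the largest shares among them, and Rbfox1, a neuronal splicing factor gene of 1528 kb, had only 4 domains. Rbms3 encodes an RNA-binding protein, Auts2 a regulator of neural development and Sox5 an SRY-related transcription factor. Their flanks, with a median of 10.5 per Mb, were close to those of the 93 genes, 12 per Mb. The 5 genes on the list of ion channels and their subunits were also all below the median of the 93, at a median of 5.28 per Mb, and their largest covered shares were in Kcnip4 (2.18%), Dpp6 (2.06%), Dpp10 (1.93%) and Cacna2d3 (1.80%). Kcnip4, Dpp6 and Dpp10 encode partners of Kv4 potassium channels. Asic2, an acid-sensing ion channel gene that is not on the list, had 2.76 per Mb.

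Adhesion molecules and synapse organisers were the largest group and held the sparsest gene of the 93 and the second densest. Their 38 genes held 328 domains at 0.813 to 17.97 per Mb, with a median of 6.84, and 17 lay above the median of the 93. Nell1, Pcdh15, Thsd7b (4.50%) and Gpc6 had the largest covered shares. Related genes differed. The α-catenin genes Ctnna3 and Ctnna2 had 8.90 and 1.82 per Mb, and the teneurin genes Tenm3 and Tenm2 had 6.94 and 0.813. The roundabout receptor genes Robo1 and Robo2 were closer, at 6.86 and 5.14.

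The 7 receptor and ligand genes had a median of 8.12 per Mb, and 6 of them lay above the median of the 93. The count depends on the list. Genes described here as receptors but listed as adhesion molecules ranged from Dcc (0.911 per Mb) to Epha6 (13.4). Nrg3, a neuregulin gene, had 2.72% covered, Lrp1b 2.65% and Erbb4, the receptor of neuregulins, 2.47%. The 12 enzyme genes had a median of 7.93 per Mb, from Wwox to Naaladl2. Besides Naaladl2, Agbl4 and Fhit, Galntl6 of the GalNAc-transferase family was covered most, at 3.51%. The 12 scaffold, cytoskeletal and trafficking genes had a median of 7.02 per Mb, and after Sntg1 the largest shares were those of Magi2 (3.91%), Nckap5 (3.89%) and Sgcz (3.32%). Magi2 encodes a synaptic scaffold. The remaining 11 genes were in none of these lists.

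Among the 93 genes, 17 are on a list of 27 genes at human common fragile sites. The list may not be complete, so the comparison below depends on it. Their median was 8.90 per Mb and 2.83% covered, against 6.80 per Mb and 2.25% for the other 76, and 11 of the 17 lay above the median of the 93. The range within the 17 was wide, from 1.095 per Mb in Wwox and 3.62 in Auts2 to 14.9 in Fhit and 15.6 in Naaladl2. Immp2l, a mitochondrial peptidase gene, had 7.51 per Mb. The 17 were also longer, with a median of 1485 kb against 1019 kb.

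The predicted genes on chromosome 18 named Gm37013, Gm38666 and Gm38667, share most of their bodies and the same 6 domains, 23.6 kb in all. Their bodies hold clustered protocadherin genes, and each shares bases with 61 protein-coding genes, the other predicted genes among them. These predicted genes were the only members that overlapped another member, so the 93 genes stand for 91 separate loci. Most of the 79 other protein-coding genes in or across the bodies of the 93 lie at this chromosome 18 locus. The 79 made up 1.07% of the body sequence and met 5 domains. Long noncoding RNA genes made up 3.49% and met 22 domains, and pseudogenes made up 0.297% and met 12. Within the bodies, pseudogene sequence was covered at 6.20%, long noncoding RNA genes at 1.30% and protein-coding genes at 0.862%, against 2.45% of the bodies as a whole. In all, 39 of the 793 domains (4.92%) met any other annotated gene, so the others lay over sequence annotated only as body of the long gene. The other annotated genes made up 4.76% of the body sequence, so the share of domains that met them is near their share of the bases. Whether a domain lay over an exon or an intron was not analysed here. The 10 microRNA hairpins annotated within the bodies, of which Mir873a and Mir873b share a position, lay 19.01 to 121.8 kb from a domain. With 2.45% of the bodies covered, nothing is read from their lying outside. The nearest were Mir691 in Robo2, at 19.01 kb, and Mir6237 in Cntn5, at 24.8 kb.

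Domains in the long genes were of moderate width. The median was 2.70 kb with quartiles of 1.65 and 3.75 kb, against 2.85, 1.80 and 4.65 kb over the 25730 autosomal domains. Of the 793, 31 were 10 kb or wider (3.91%), against 6.61% of autosomal domains. None reached 20 kb, a width that 167 autosomal domains (0.649%) had. Among all autosomal protein-coding genes, 0.282% met such a domain. Most of those genes are far shorter, and the chance of meeting a domain grows with length, so this share is no background for the 93. The share in genes of like length was not computed, so nothing is read from the absence. After the 15 kb domain of Gpc6, the widest were 13.7 kb in Sgcd, the gene of δ-sarcoglycan, 13.4 kb in Etl4, and 13.1 kb in each of Sntg1 and Lsamp.

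The median gap between neighbouring domains in a gene was 62.6 kb. Every gene also had a long stretch without any domain, from 117.9 kb in Sugct to 1108 kb in Opcml, with a median of 369.5 kb. In 18 genes a single free stretch took at least 50% of the body. Such genes included Prkg1, a cGMP-dependent kinase gene, with 683.3 kb free from its 5′ end, Pcdh9, a protocadherin gene, with 676.4 kb, and Anks1b, a postsynaptic scaffold gene, with 792.4 kb before its 3′ end. Over 1029 windows of 100 kb laid along the bodies, 49.9% had no domain midpoint, the mean was 0.757 and the highest count 5. The variance of the counts was 1.17 times their mean, and over 24024 autosomal windows, with a mean of 1.07, it was 1.54 times the mean.

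Domains lay along the whole body. Read from the lower to the higher coordinate, the 10 equal parts of the 93 bodies held 6.63 to 8.78 domains per Mb by midpoint, and between 42 and 56 genes had a domain in each part. Read from 5′ to 3′ in the 72 genes with a known strand, the 10 parts held 4.76 to 8.18 per Mb. The lowest was the fourth part, with 39 domains, and its neighbours held 57 and 64. The outer 100 kb at both ends had 7.31 per Mb and the rest of the bodies 7.63, a ratio of 0.959. In 244 genes of 400 to 800 kb the same ratio was 0.971, and in 607 genes of 200 to 400 kb it was 0.803. The ratio in the long genes moved with the width taken as the end, from 0.841 with 50 kb at each end to 1.01 with 200 kb, where the order turned. It was 0.875 in the 55 genes of 1 Mb or more.

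Density differed between the inside and the outside of the gene boundary. In the last 25 kb inside the ends of the 93 genes there were 5.38 domain midpoints per Mb, and in the first 25 kb outside there were 10.3. From 25 to 50 kb the values were 6.88 inside and 14.4 outside, from 50 to 100 kb they were 8.06 and 12.3, and from 100 to 200 kb they were 8.01 inside and 14.6 outside. At every distance up to 400 kb the outside was denser. The same held at both kinds of end in the 72 genes with a known strand. At 25 to 50 kb from the 5′ end the densities were 5 inside and 15 outside, and at the 3′ end 7.78 and 16.1. The smallest contrasts were at the 3′ end, 8.19 against 9.86 from 200 to 300 kb and 7.22 against 9.17 from 50 to 100 kb. These bins hold few domains, down to 9 within the bodies, and their counting error is not known for lack of replicates.

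**Figure D3:**
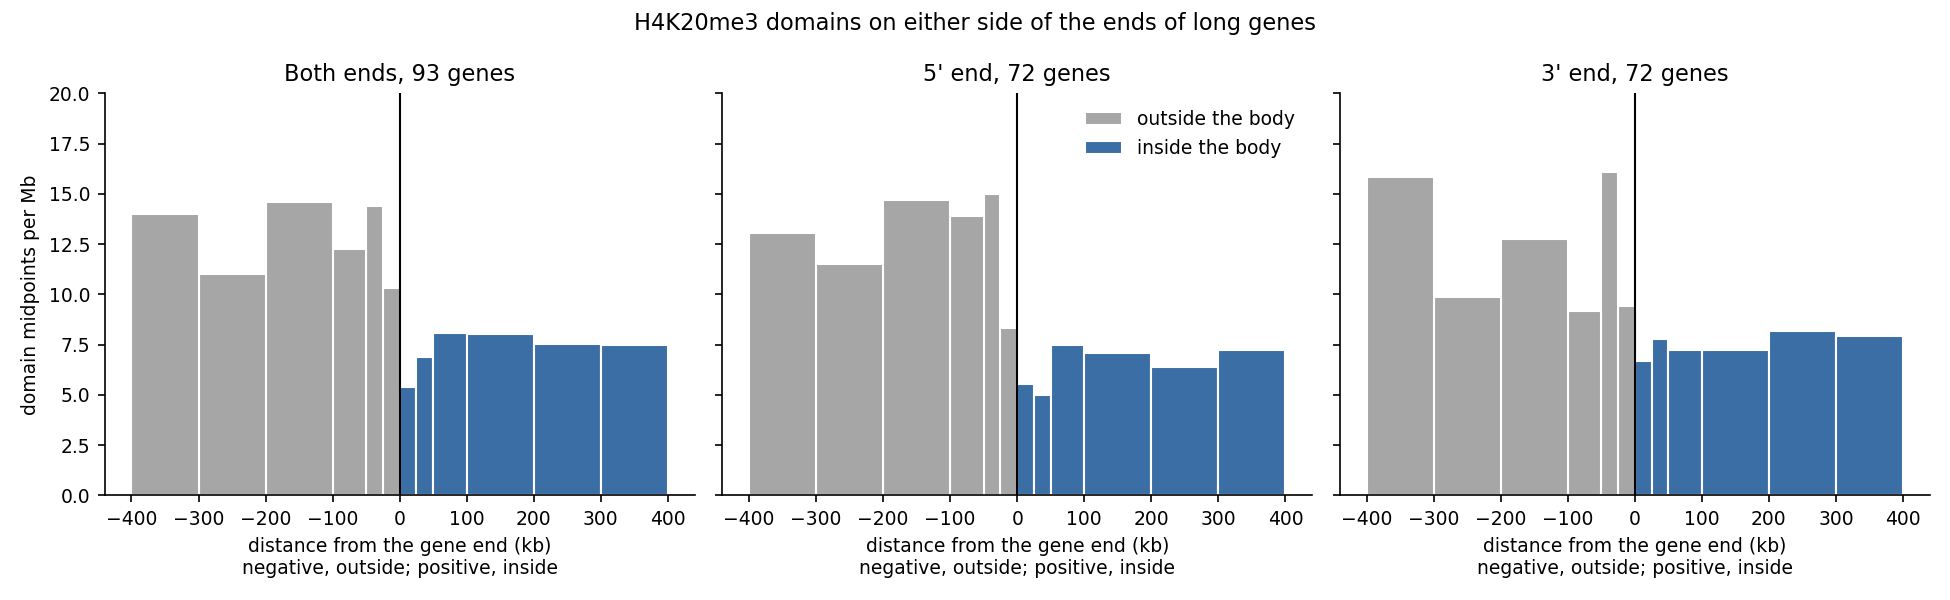
Domain midpoints per Mb in bins of distance (kb) from the gene ends, outside the body (grey, negative distances) and inside it (blue, positive distances), for both ends of the 93 genes and for the 5′ and 3′ ends of the 72 genes with a known strand. Blue bars stay between 5 and 8.19 per Mb, and each grey bar is higher than the blue bar at the same distance.

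No end of the 93 genes lay inside a domain, where 2.3% of all autosomal protein-coding genes had an end in a domain. The share was 1.15% in genes of 200 to 400 kb and 2.05% in genes of 400 to 800 kb. With shares this small, the absence from 93 genes is near the background. In 9 genes a domain lay within 10 kb inside an end. Pcdh9 had one 1.15 kb from its 3′ end and Auts2 one 1.27 kb from its upper end. Spag16 had one 3.98 kb from its 5′ end, and Magi2 one 6.29 kb from its 3′ end. In the 72 genes with a known strand, the median distance from the 5′ end to the first domain was 104.2 kb and from the 3′ end to the last domain 116.5 kb. The 5′ distance was the longer in 35 of the 72.

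Against its own surroundings, a long gene usually had the lower density. In 71 of the 93 genes there were fewer domains per Mb in the body than in the 500 kb on each side, and in 22 there were more. The overlapping genes Gm37013, Gm38666 and Gm38667, which share their domains, are each counted among the 22. The share of lower genes was 75.2% among 851 genes of 200 to 800 kb and 88.1% among all autosomal protein-coding genes, so 71 of 93 (76.3%) is near the value for genes of 200 to 800 kb and below that for all genes. Summed over the 93 genes, bodies had 7.51 and flanks 12.7 domains per Mb, a ratio of 0.592, and 2.45% against 4.80% of bases were covered. In 39 genes the body had at most 50% of the density of its flanks. That share was not computed for other genes, so nothing is read from the count. Summed over genes of 200 to 800 kb, bodies had 5.98 and flanks 10.2 domains per Mb. Nlgn1 had 1 domain in its body and 20 in its flanks. Ctnna2 had 2 and 19, Cdh12, a cadherin gene, 7 and 26, and Marchf1, a ubiquitin ligase gene, 11 and 30.

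Pcdh15 was the clearest case in the other direction and the only gene with at least 2 times the density of its flanks. Its body held 22 domains over 1554 kb, and the flanks held 1 on the lower and 2 on the upper side. Cntnap2 had 9.37 per Mb in its body and 7 in its flanks, all of them on the lower side. Naaladl2 had 15.6 and 12, and Spag16 10.0 and 8. Density in the body and in the flanks rose together across the 93 genes, as a description (Pearson's r = 0.476, Spearman's rho = 0.360). Without Sntg1 and Thsd7b, the genes farthest from the median, r was 0.321.

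**Figure D4:**
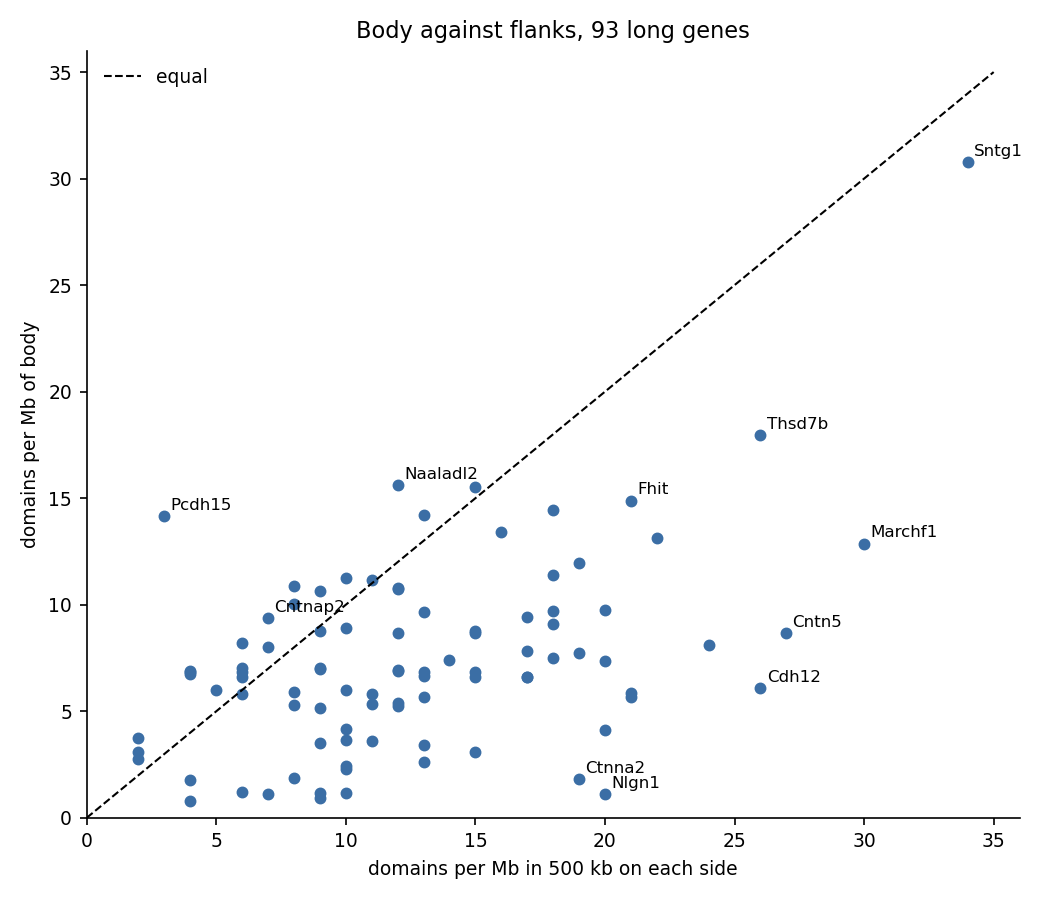
Domains per Mb of body (y axis) against domains per Mb in 500 kb on each side (x axis) for the 93 genes, 1 point each; the dashed line marks equal densities. Points lie below the line for 71 genes, Pcdh15 stands far above it, and Nlgn1 and Ctnna2 lie near the x axis.

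Long genes that neighbour each other could differ sharply in their number of domains. Naaladl2 and Nlgn1 lie 277.7 kb apart on chromosome 3. Naaladl2 had 21 domains and Nlgn1 had 1, and the sequence between them held 7, or 25.2 per Mb. Gpc5 and Gpc6, glypican genes 399.7 kb apart on chromosome 14, had 16 and 7 domains with 7 between them. Erc2 and Cacna2d3 on the same chromosome had 6 and 2. Other pairs were closer in number. Opcml and Ntm, IgLON adhesion genes 69.3 kb apart on chromosome 9, had 2 and 3 domains and none between them. Cdh12 and Cdh18 on chromosome 15 had 7 and 9 domains, and the 950.5 kb between them held 18. Covered shares did not always follow these counts. They were 5.67% and 0.231% in Naaladl2 and Nlgn1, and 0.555% and 0.434% in Opcml and Ntm. Gpc5 and Gpc6 had 3.59% and 4.44%, Erc2 and Cacna2d3 2.03% and 1.80%, and Cdh12 and Cdh18 1.40% and 3.67%.

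By chromosome, the long genes were densest on chromosome 1, with 96 domains in 8 genes (11.7 per Mb), and sparsest on chromosomes 19 (2.91), 12 (3.07) and 11 (3.30). Sntg1 alone held 29 of the 96 domains on chromosome 1, so its first place rests largely on 1 gene. The next highest were chromosomes 10 (9.38) and 13 (9.35). On each of the 19 chromosomes the summed density of the long genes was below that of the chromosome as a whole. It came closest on chromosome 10, at 9.38 against 10.2, and was farthest below on chromosome 12, at 3.07 against 10.1.

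Compared with shorter genes, the long ones had the highest density of the length classes. Counted by midpoint and summed over bodies, density was 3.87 per Mb in genes under 50 kb, 4.42 from 50 to 200 kb, 5.78 from 200 to 400 kb, 6.20 from 400 to 800 kb and 7.51 at 800 kb or more. The covered share was 1.50%, 1.75%, 1.93%, 2.08% and 2.45% in the same order. All classes stayed below the 14.6 domains per Mb and 5.90% of sequence outside protein-coding bodies. Flank density was 9.48, 8.44, 9.75, 11.2 and 12.7 per Mb in the same order, so from 50 kb upward the surroundings of longer genes were denser too. The part of the surroundings in the difference between length classes was not tested.

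**Figure D5:**
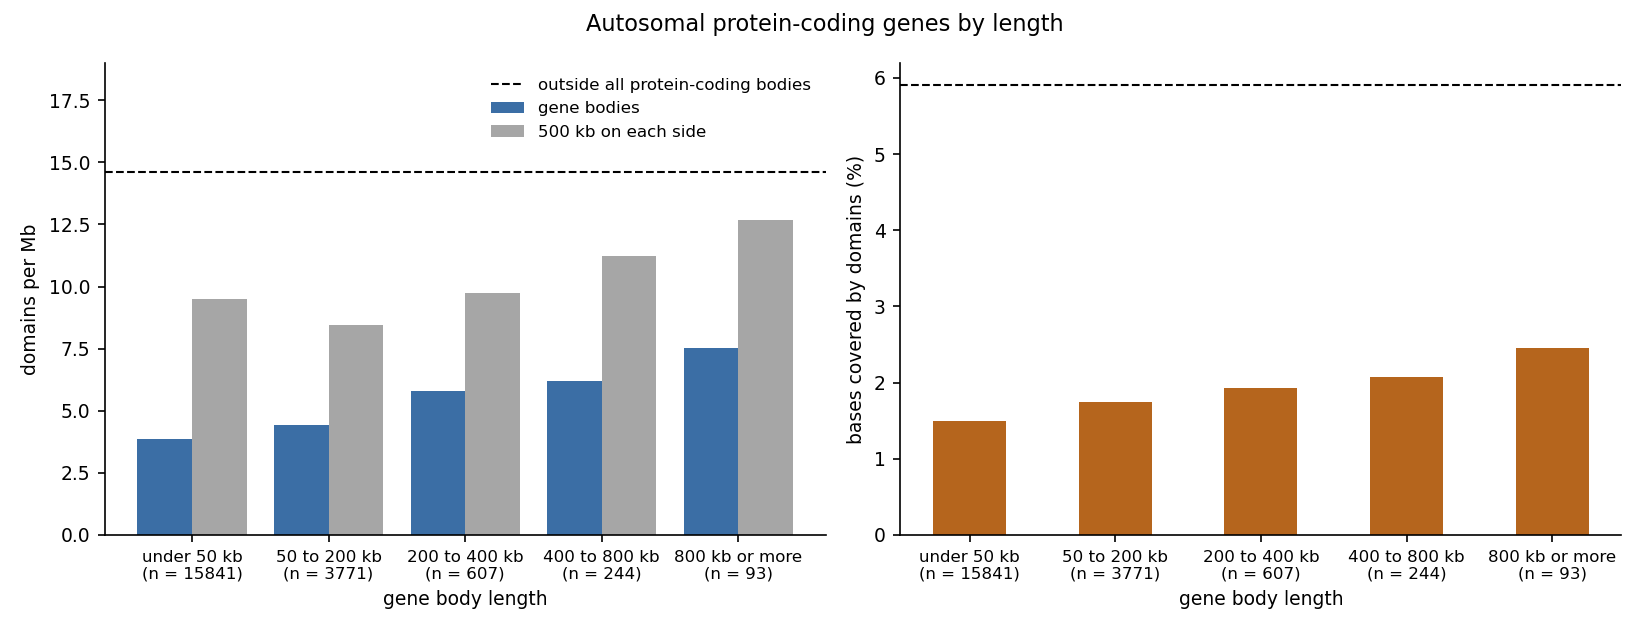
Left, domains per Mb in gene bodies (blue, by midpoint) and in 500 kb on each side (grey, by at least 1 shared base) for autosomal protein-coding genes in 5 classes of body length. Right, percent of body bases covered. Dashed lines give sequence outside all protein-coding bodies, 14.6 per Mb and 5.90%; bodies rise from 3.87 to 7.51 per Mb with length and stay below the line.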

How the data were processed

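H4K20me3 ChIP-seq was made from 12 samples of mouse embryonic stem cells at 4 times, per the labels. The authors deposited 1 list of domains, whose columns give each domain's chromosome, start and end in bases, without a signal or score. RSEG is named in the file name; the sources used here do not give its settings or libraries. The tools deepTools, bedtools, SAMtools 1.1 and Bowtie2 2.3.4.1 and the builds mm10, dm6, mm9 and GRCm38 are named, per the submitters' processing notes, without their roles. Contig names fit mm10, which is GRCm38.

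Gene bodies came from a RefSeq table of GRCm38.p6 without exons, and strand from its promoter table. A domain counted with at least 1 shared base, and by its midpoint in position bins and length classes. Flanks of 500 kb were cut at 3 Mb and at the last annotated gene or domain end. The samples enter no value, so the planned comparison of times was not run, and depth is unknown. Members and role lists were chosen with earlier results of these data known; 4 double or doubtful list entries were removed after values were seen. Named genes are the 10 highest by density and by covered share, the 5 lowest, the 5 longest, those next to the threshold, up to 4 per list, and those with a domain over an end or of 20 kb; others (gene pairs, neighbours, flank contrasts, distances) were chosen after their values were seen. Some genes that the rule names are not reported here. Interval counts were tested on simulated data. Tables and figures were made with pandas 2.3.3, matplotlib 3.10.9, scipy 1.17.1 and numpy 2.4.6 in Python 3.11.15.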

Additional observations from a re-analysis of the deposited data

How the results depend on the processing

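Of 60 alternative values, 56 stayed within 1.5 times the reported one and, for ratios, on the same side of 1. Some of them could not move: no gene end lay inside a domain, so counting by midpoint left the number of domains in each body unchanged. With only domains at or above the median width of the whole list (3 kb), density fell to 3.37 domains per Mb and its median over genes to 3.08, as fewer domains were counted. With these domains 86 of the 93 genes met a domain. At a threshold of 1 Mb, 55 genes remained and all 55 met a domain. The ratio of the outer ends to the rest turned from 0.959 to 1.01 with 200 kb at each end; the cause was not tested. Density in the bodies against the flanks was 0.489 to 0.626 over its alternatives. Without Sntg1, chosen after the data were seen, the density of the bodies was 7.32 per Mb. No paired analysis was possible because the list names no sample. The depth of the libraries is unknown, so what depth limits cannot be given.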
